A study of Mus musculus with 6 samples.

Results

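Of 16807 genes with a counted coding sequence (CDS) and a counted 3'UTR of at least 100 nt, 515 (3.06%) had 20 or more ribosome footprints on the 3'UTR. These 515 regions were selected on that footprint count, in mouse keratinocytes labelled as squamous cell carcinoma (SCC), so their footprint numbers below are a description. The files list 23698 genes or groups of genes, of which 204 carry joined names and were set aside. The cells were primary keratinocytes of P0 back skin carrying HrasG12V and a Tgfbr2 fl/fl knockout, cultured to passage 10 to 15. Counts were deposited for 1 ribosome profiling library and 2 RNA-seq replicates of total mRNA, and nothing states that the replicates came from separate cultures or how many animals gave the cells. Every library carried the same genotype, so no comparison with normal keratinocytes was possible within these files.

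In ribosome profiling, the stretch of mRNA covered by a ribosome survives nuclease digestion and is sequenced as a footprint. Ribosomes are released at the stop codon, so a 3'UTR normally carries few footprints; those that do appear there can come from ribosomes that pass or fail to leave the stop codon, from translation starting again, or from RNA fragments of other origin that copurify with ribosomes. A short fragment can also match several places in the genome, because mouse 3'UTRs contain many copies of short interspersed elements, inserted gene copies and small RNA genes.

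What many of the 515 regions shared was sequence also present elsewhere, so the shared sequences are shown before the values. The transcripts of GENCODE M21 (GRCm38) were cut into words of 28 bases, and a repeated word here is one found in the transcripts of at least 10 other genes, simple sequence left aside. The next 2 words were taken in turn as the word held by the most of the 515 regions, the second among regions without the first, and they are shown because they recur across genes; capitals mark the word. They were chosen after the values were seen.
Word 1 in Dennd5b (chr6:148990170-148990199, minus strand): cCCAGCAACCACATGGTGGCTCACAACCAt
Word 2 in Syt11 (chr3:88746613-88746642, minus strand): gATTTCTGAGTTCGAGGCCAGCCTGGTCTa

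Word 1 occurred in transcripts of 442 genes and word 2 in 463. No repeat annotation was at hand, and the element each word belongs to was not assigned.

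A different set of words ties single 3'UTRs to a known RNA or coding sequence, and these are shown because they belong to regions with among the most footprints or with none on the CDS; capitals mark the shared word, chosen after the values were seen.
Tmem38b (chr4:53860700-53860729, plus strand): gAGCTAAGCAGGGTCGGGCCTGGTTAGTAc
2310014L17Rik (chr7:12930820-12930849, plus strand): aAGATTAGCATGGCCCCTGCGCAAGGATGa
Lrrc58 (chr16:37883295-37883324, plus strand): tTTCCAGCCTTCCTTCTTGGGTATGGAATc
Lamp3 (chr16:19654127-19654156, minus strand): cCCCAAAGATGGCTCTGGTGACAGTCATCc

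The Tmem38b word was present in 63 other genes, 59 of them annotated as rRNA, and the 2310014L17Rik word in 161 other genes, all annotated as small nuclear RNA. The Lrrc58 word lies in the coding sequence of Actb (beta-actin) and the Lamp3 word in that of Ppid (a peptidylprolyl isomerase).

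Uninterrupted runs of A were the other recurring feature. The ends of the longest run are shown for the 3 regions with the most footprints among those with a run of at least 20 A, no repeated word and no overlapping gene on the same strand; capitals mark the last 20 bases of the run, and these genes too were chosen after the values were seen.
B630005N14Rik (chr6:13625885-13625914, minus strand): AAAAAAAAAAAAAAAAAAAAggaaggaagg
Igf2bp2 (chr16:22059027-22059056, minus strand): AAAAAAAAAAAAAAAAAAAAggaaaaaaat
D630003M21Rik (chr2:158182864-158182893, minus strand): AAAAAAAAAAAAAAAAAAAAgaggaaagca

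For contrast, stop codons are shown for the 5 regions with the highest footprint ratio of 3'UTR to CDS among those with at least 100 CDS footprints and no repeated word, run of A or overlapping gene on the same strand, because they hold none of these 3 features; capitals mark the stop codon, and the genes were chosen after the values were seen.
Arhgap11a (chr2:113834740-113834766, minus strand): caatactgtTAGaatttaacctcaaat
Tor4a (chr2:25194594-25194620, minus strand): gctggacacTAGccagtgggcccaggc
Emg1 (chr6:124704530-124704556, minus strand): ggtgtcattTGAgcccagcagggcctg
Hdac7 (chr15:97793682-97793708, minus strand): atgaacctcTAGggtttcagaacagat
Fnta (chr8:25999433-25999459, minus strand): gcgagtgtaTAGcagcgagggcatccg

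Footprints on 3'UTRs were few. Among counts on the CDS and 3'UTR of the 16807 genes, the 3'UTR received 2.30% in ribosome profiling (95% interval 2.28 to 2.32%), 30.4% in RNA-seq replicate 1 and 28.4% in replicate 2. Intervals in this text cover counting error only, since ribosome profiling has no replicate here. In the 515 regions the share was 4.01% of footprints, against 28.1% and 25.7% of RNA-seq counts, and in the remaining genes it was 1.52%, 31.1% and 29.3%. The RNA of the selected genes thus carried no larger 3'UTR share than that of the rest, while their footprints did, by the way they were chosen.

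The 515 regions held 54.2% of all 3'UTR footprints but 22.7% and 22.9% of the 3'UTR counts of the RNA-seq replicates and 30.5% of CDS footprints. The 5 3'UTRs with the most footprints held 8.70% of them, where the top 5 of each RNA-seq library held 2.66% and 2.94%. Reaching 50% of the counts took 400 3'UTRs in ribosome profiling and 794 and 790 in RNA-seq. These 3'UTR counts came to 59935 in ribosome profiling and 2876051 and 3483832 in RNA-seq, and the libraries were not compared at equal depth. At the other end, 8754 3'UTRs had no footprint. Within the selection, 3 regions had at least 1000 footprints, 57 at least 100 and 310 fewer than 40.

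**Figure D1:**
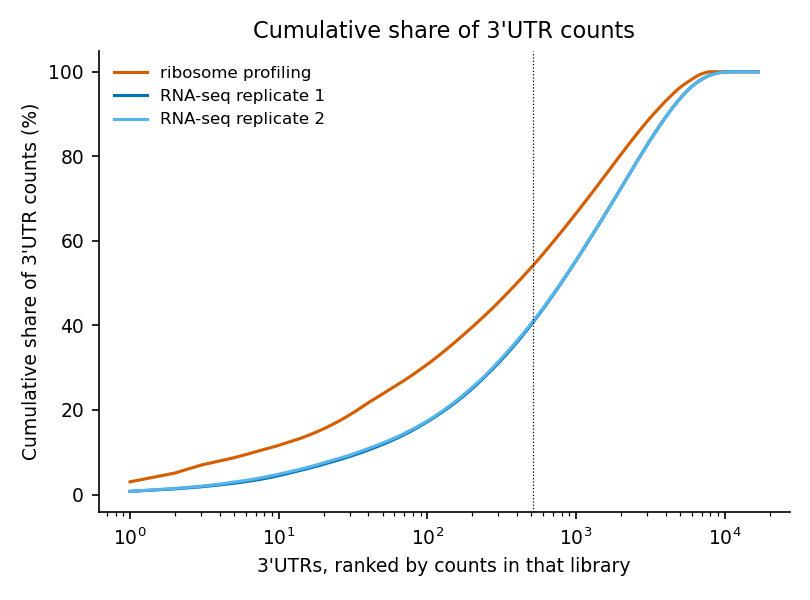
Cumulative share of 3'UTR counts against the rank of the 3'UTR, each library ranked by its own counts; the dotted line stands at the 515 regions with at least 20 footprints.

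Transcripts of keratinocyte markers were abundant in all libraries. Levels are given as RPKM recomputed with each library's exon counts. All 7 keratinocyte markers were listed, with a summed level of 7263, 14398 and 16518 in the ribosome profiling library and RNA-seq replicates 1 and 2, and Krt5 was the most abundant in each. Of 5 markers of differentiated keratinocytes 4 were listed, with sums of 71.2, 118 and 120, led by Ivl. The 7 fibroblast or feeder markers summed to 0.469, 9.98 and 15.6, with Pdgfra the most abundant in ribosome profiling and Col3a1 in both RNA-seq replicates. These sums place the bulk of the RNA with keratinocytes. The 4 melanocyte markers summed to 0.690, 5.38 and 5.47, led by Tyr in ribosome profiling and Pmel in RNA-seq. The 4 immune markers summed to 8.85, 37.9 and 46.1, led by Cd68, with Cd3e at 0 in both RNA-seq replicates, and the 3 endothelial markers to 0.724, 0.505 and 0.591, led by Kdr. In such bulk samples fewer cells of a type and less RNA per cell cannot be told apart. Of the keratinocyte markers, Col17a1, Itga6, Krt14, Krt5 and Trp63 were among the 515 genes, a selection that held 3.06% of all 3'UTRs and 39.8% of those with at least 1000 CDS footprints.

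To set footprints against RNA on the same regions, the density on the 3'UTR was divided by that on the CDS within each library, which needs no library size. The ratio was taken for regions with at least 10 CDS footprints and at least 10 RNA-seq counts on the 3'UTR and on the CDS in each replicate. Of the 515 regions, 448 met these minimums; 55 had fewer than 10 CDS footprints, 34 of them none, and 12 had enough CDS footprints but too few RNA-seq counts. The 448 are those of the 515 with measurable coding sequence and RNA, and statements on them do not extend to the others.

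Over the 448 regions the median log2 footprint ratio of 3'UTR to CDS was -4.61 (quartiles -5.88 and -2.83), against -0.72 in RNA-seq replicate 1 and -0.82 in replicate 2. RNA thus covered the 3'UTR somewhat less densely than the CDS, while footprints were far sparser on it even in these regions. The median difference between the log2 footprint ratio and the mean log2 RNA-seq ratio was -3.41 (SD over the RNA-seq replicates 0.05), 10.6-fold below the RNA. This value depends on the minimum that chose the regions, and was -1.82 with 50 footprints and -0.11 with 100. Over all 7887 genes that met the same minimums the median log2 footprint ratio was -5.94 and the median log2 difference -5.18.

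The regions spread from a log2 footprint ratio of -10.12 (Rps15a) to 5.39 (Tmem38b). Footprint density was higher on the 3'UTR than on the CDS in 35 of the 448 (7.81%), a call made in 0.533% of all 7887 genes, and the footprint ratio exceeded both RNA-seq ratios in 58 (12.9%), a call made in 1.18% of them. As the footprints on the 3'UTR chose the regions, nothing is read from these percentages. RNA-seq itself was denser on the 3'UTR in 89 regions in replicate 1 (19.9%) and 59 in replicate 2 (13.2%), against 20.1% and 13.7% of all 7887 genes. Of the 35 regions with denser footprints on the 3'UTR, 32 exceeded both RNA-seq ratios and 3 did not, and 26 further regions were denser on the CDS yet exceeded both RNA-seq ratios.

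**Figure D2:**
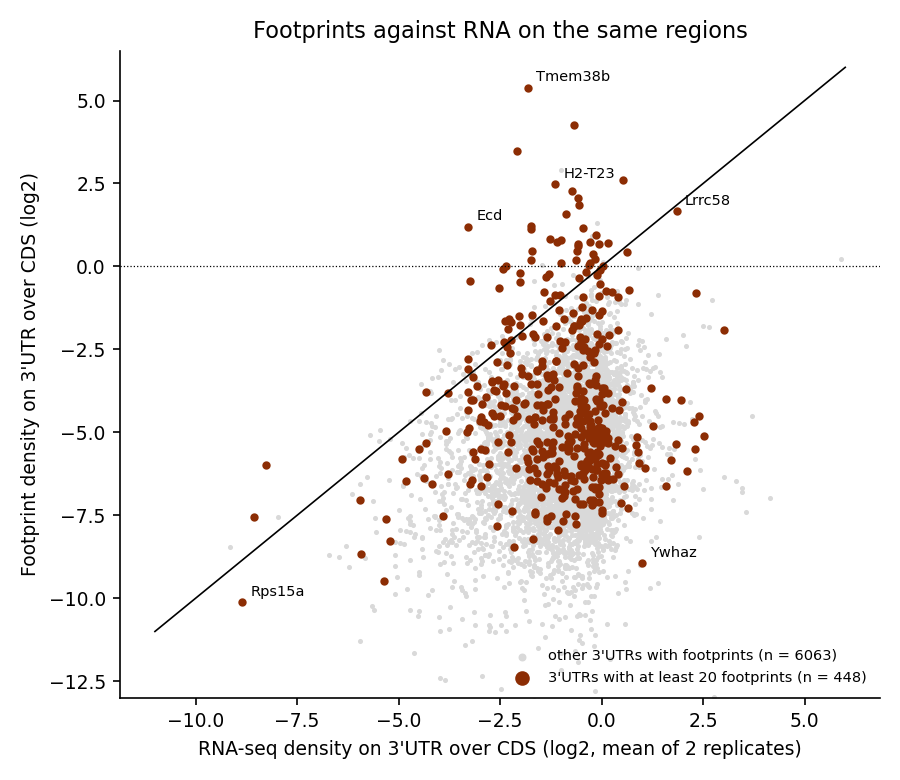
Log2 footprint ratio of 3'UTR to CDS against the log2 RNA-seq ratio of the same regions. Points on the diagonal have equal ratios in both; above the dotted line footprints were denser on the 3'UTR.

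Across the 448 regions the footprint ratio hardly varied in rank with the RNA-seq ratio (Spearman 0.00780 with replicate 1 and -0.00262 with replicate 2, n = 448), while the RNA-seq replicates ranked the regions alike (0.974). Points share the region lengths and, within a ratio, the library. The number of footprints on the 3'UTR had correlations of 0.0261 with that on the CDS and of 0.0111 and 0.00911 with the RNA-seq counts on the same 3'UTR, and the footprint ratio had -0.0499 with the length of the 3'UTR. Over the 413 regions denser on the CDS, 3'UTR footprints had a Spearman correlation of 0.149 with CDS footprints and of 0.102 and 0.101 with the RNA-seq counts. The threshold on 3'UTR footprints narrows their range, so these correlations hold for the selected regions alone. The selected genes were also more abundant than the rest: the median gene of the 515 had 442 CDS footprints and RNA-seq levels of 52.1 and 53.0, against 12.5 footprints and levels of 3.03 and 3.01 in other genes. Of 427 genes with at least 1000 CDS footprints 170 were in the selection, and of 15 with at least 10000, 13 were. Length differed too, with a median of 1509 nt for the 515 3'UTRs and 839 nt for the others.

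By footprints on the coding sequence the 515 regions fell into 3 groups. In 422, footprints were denser on the CDS; these regions held 60.7% of the footprints of the selection, with medians of 713 CDS footprints and, on the 3'UTR, 32.7 footprints and 729 and 921 RNA-seq counts. In 38, including 3 with too few RNA-seq counts for the ratio, footprints were denser on the 3'UTR; they held 23.4%, with medians of 44.6 CDS footprints and, on the 3'UTR, 100 footprints and 65.9 and 75.4 RNA-seq counts. In the 55 with fewer than 10 CDS footprints the medians were 41 footprints on the 3'UTR and 0 on the CDS, with 2 and 3 RNA-seq counts on the 3'UTR, and they held 16.0%. The first group were thus mostly abundant mRNAs, with few 3'UTR footprints relative to the CDS. In the last, most genes had few RNA-seq counts.

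The groups differed in the sequence of the 3'UTR. A matching M21 transcript was found for 510 of the 515 regions and 16607 of the 16807. At least 1 of 3 features (a repeated word, a run of at least 20 A, or another annotated gene on the same strand) was present in 32 of the 38 regions denser on the 3'UTR (84.2%), in 45 of the 55 with fewer than 10 CDS footprints (81.8%), and in 126 of 417 denser on the CDS (30.2%), against 10.4% of the 3'UTRs not selected. The features were defined after the values were seen, so no test was made. The median 3'UTR lengths of these groups were 1282, 2480 and 1478 nt, and the shares were not taken by length within the groups.

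Over all 510 regions, 30.0% held a repeated word, 12.4% a run of A and 3.92% an overlapping gene on the same strand, against 8.16%, 0.770% and 1.89% of the other 16097 3'UTRs. Longer 3'UTRs have more room for either feature, so the shares were also taken by length. From 100 to under 500 nt, 6.19% of the selected and 3.46% of the other 3'UTRs held a repeated word; from 500 to under 1000 nt, 24.2% and 6.69%; from 1000 to under 2000 nt, 30.0% and 9.43%; from 2000 nt up, 43.4% and 15.9%. For a run of A the shares were 1.03% and 0.315%, 9.89% and 0.649%, 10.9% and 0.812%, and 19.3% and 1.59%. In each of the 4 length bands both features were thus more frequent in the selected regions, though for the run of A the shortest band rests on 1 of 97 selected regions against 17 of 5403 others. GC content (median 43.6% against 44.3%) and the share with a gene on the opposite strand (14.3% against 11.7%) lay close together.

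The share of selected 3'UTRs was higher with a run of at least 20 A. Of 14316 3'UTRs whose longest run of A was under 10 bases 2.37% were in the selection; of 1679 with 10 to 14 bases, 5.18%; of 425 with 15 to 19 bases, 4.94%; of 169 with 20 to 29 bases, 29.0% (49 regions); and of 18 with 30 or more, 77.8% (14 regions). Runs of T in the same 3'UTRs, which are runs of A on the opposite strand, showed no such step: 2.52%, 5.24%, 7.02%, 7.69% (21 of 273) and 5.71% (2 of 35) for the same lengths. The last band of A holds fewer than 20 3'UTRs, and without it the share still rose from 4.94% to 29.0%. The 3'UTRs with at least 20 A had medians of 67.0 and 95.7 RNA-seq counts and those with at least 20 T had 90.9 and 101, while the median footprints were 8.60 and 1.43. With at least 30 A the RNA-seq medians were 30.4 and 38.0 and the median CDS had 7.52 footprints, against 98.9, 110 and 96.9 with at least 30 T, so these longest runs lay in genes of unlike abundance. The contrast between A and T did not hold at every length: from 100 to under 500 nt, 1 of 18 3'UTRs with at least 20 A was selected and 3 of 34 with at least 20 T. Among 112 3'UTRs with at least 20 A but no such run of T, repeated word or overlapping gene, 34 (30.4%) were selected.

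**Figure D3:**
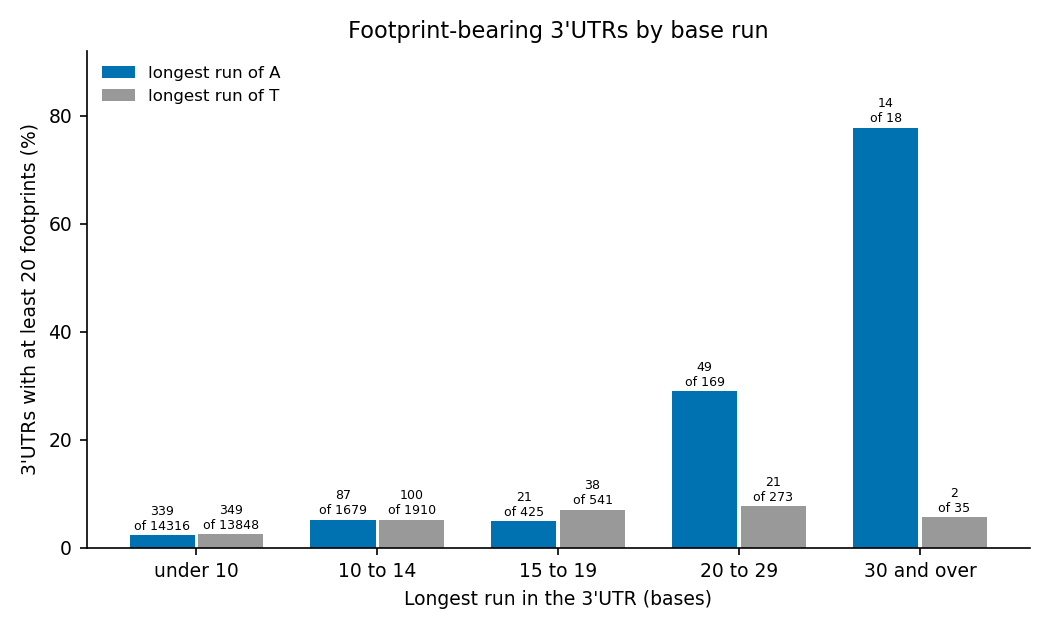
Percent of 3'UTRs with at least 20 footprints, by the longest uninterrupted run of A or of T in the 3'UTR as transcribed; numbers above the bars give the selected regions and all 3'UTRs in the band.

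Orientation did not act alike on the repeated words. Word 1 as transcribed was held by 94 3'UTRs, 35 of them selected (37.2%), and its reverse complement by 37, 3 of them selected (8.11%). For word 2 these were 24 of 103 (23.3%) and 13 of 95 (13.7%). A further word taken in the same way, whose sequence is not printed, went the other way, with 11 of 66 (16.7%) as transcribed and 17 of 64 (26.6%) as the reverse complement. The words were chosen for their frequency among the selected regions in the transcribed direction, which favours that direction.

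Among the 448 regions, 290 with a matched transcript and none of the 3 features had a median log2 footprint ratio of -5.15 and a median log2 difference from RNA-seq of -4.33, and 5 of them (1.72%) were denser on the 3'UTR. The 119 with a repeated word had -2.50 and -1.27, with 20 (16.8%) denser on the 3'UTR; all 826 genes with such a word that met the minimums, selected or not, had -5.54 and -4.50, with 2.66% denser there. The 38 with a run of A had -1.25 and 0.23, with 15 (39.5%) denser on the 3'UTR, against -4.13, -3.39 and 14.2% over all 106 genes with such a run that met the minimums. The 19 with an overlapping gene had -4.03 and -1.22, with 4 denser on the 3'UTR, against -5.85, -5.02 and 2.13% over all 188. All 6795 genes with none of the 3 features that met the minimums had -6.01 and -5.29, with 0.147% denser on the 3'UTR, so genes with a repeated word or a run of A had higher medians with and without the selection, by less without it. The gap within the selection is in part set by the choice, since at least 20 footprints on the 3'UTR admit a gene with few CDS footprints only at a high ratio: the median CDS footprints were 983 with none of the features, 178 with a repeated word and 135 with a run of A in the selection, but 114, 101 and 108 over all genes. Whether the footprints lay on the repeated words or the runs of A was not tested, because the deposited counts give no positions within a region.

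**Figure D4:**
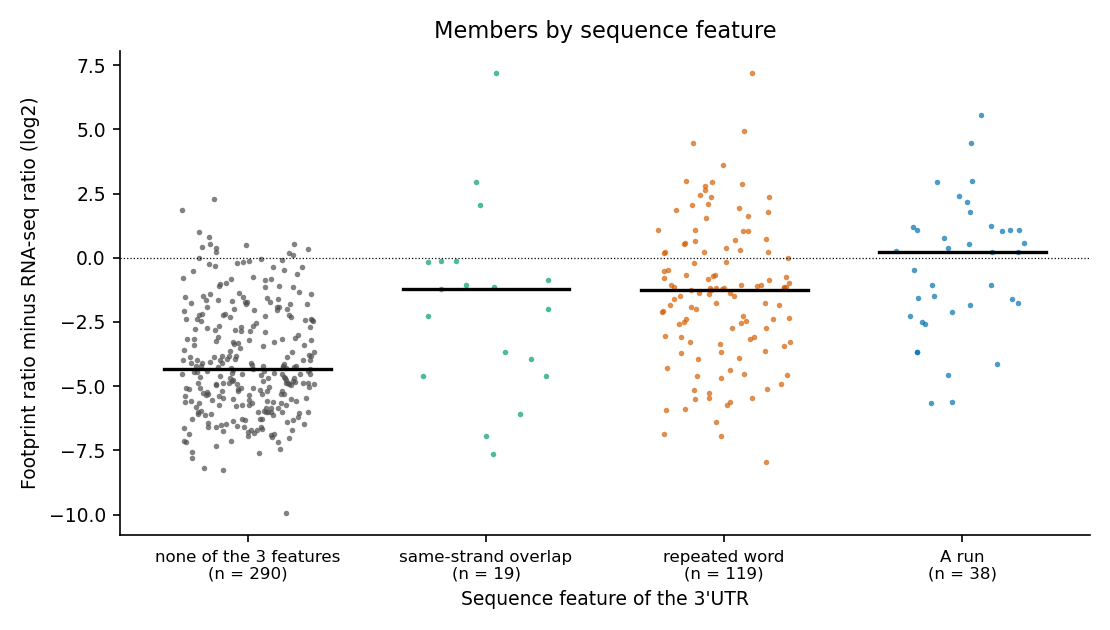
Log2 footprint ratio minus log2 RNA-seq ratio for the 448 regions by sequence feature; a region with 2 features appears under both, and bars mark medians.

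The 5 regions with the most footprints each carried such a sequence in the annotated 3'UTR. Lrrc58, a leucine-rich repeat protein, led with 1795 footprints on the 3'UTR and 154 on the CDS, with 1107 and 84.0 counts in RNA-seq replicate 1 and 1452 and 112 in replicate 2. All libraries were denser on the 3'UTR, at log2 ratios of 1.68 (95% interval 1.44 to 1.92) for footprints and 1.86 and 1.84 for RNA. Both RNA ratios lay within the counting interval of the footprint ratio. Its annotated 3'UTR overlaps Gm15725, a transcribed processed pseudogene, by 1090 nt. It shares 312 words with the coding sequence of Actb, which itself had 42354 CDS footprints. The counted 3'UTR, 3903 nt, was 52.8% of the annotated length, so how much of this sequence was counted is not known. The part of Actb in these counts was not tested.

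2310014L17Rik, an uncharacterised gene, had 1249 footprints on the 3'UTR and 0 on the CDS, with 7.83 and 1.00 RNA-seq counts in replicate 1 and 12.8 and 5.54 in replicate 2. Its 3'UTR overlaps Gm26325, an annotated small nuclear RNA gene, by 107 nt. Tmem38b, a cation channel of the endoplasmic reticulum, had 1125 footprints on the 3'UTR and 12.6 on the CDS, with 78.8 and 106 RNA-seq counts in replicate 1 and 74.3 and 151 in replicate 2. Its log2 footprint ratio was 5.39 (4.60 to 6.32), where the RNA was denser on the CDS (-1.52 and -2.12), and its 3'UTR overlaps n-R5s185, an annotated rRNA gene, by 119 nt; per the methods of the study, footprint reads that aligned to rRNA had been removed. Both regions thus overlap a small RNA gene and had footprints out of proportion to their mRNA.

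B630005N14Rik had 591 footprints on the 3'UTR and 70.5 on the CDS, with 432 and 226 RNA-seq counts in replicate 1 and 411 and 313 in replicate 2. Its longest run of A had 40 bases, and its log2 footprint ratio was 1.86 (1.50 to 2.23) against -0.28 and -0.82 for RNA. Dennd5b, a factor that activates Rab GTPases, had 453 footprints on the 3'UTR and 0 on the CDS, with 4 and 6 RNA-seq counts on the 3'UTR and 0 on the CDS in either replicate. Its 3'UTR of 5640 nt held both features, word 1 and a run of 28 A.

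**Figure D5:**
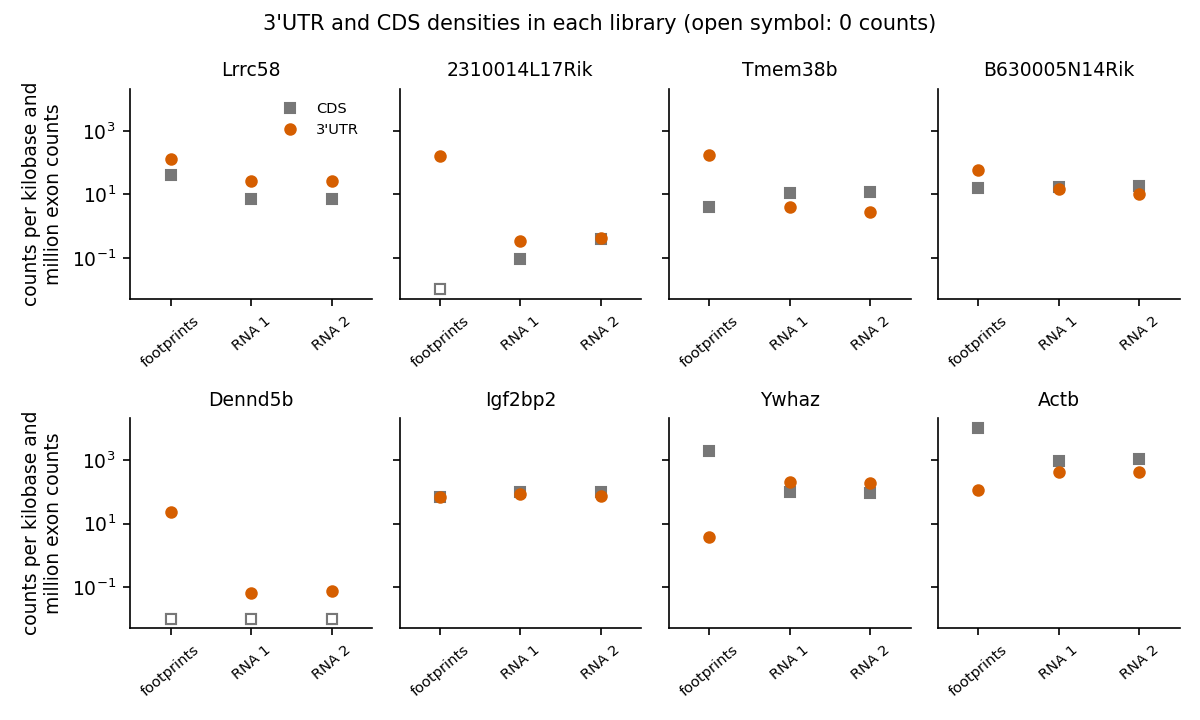
Density on the 3'UTR and CDS in each library for the 5 regions with the most footprints and for Igf2bp2, Ywhaz and Actb, the last of these and Igf2bp2 chosen after their values were seen.

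Among regions without CDS footprints, Dennd5b and 2310014L17Rik were followed by Syt11, a synaptotagmin of vesicle traffic, with 285 footprints on the 3'UTR, 30.0 and 6.71 RNA-seq counts on the 3'UTR and CDS in replicate 1, and 41.2 and 17.8 in replicate 2. It holds word 2 and a run of 36 A. Lamp3, a lysosomal membrane protein named after its values were seen, had 161 footprints on the 3'UTR and 0 on the CDS, with 94.0 and 121 RNA-seq counts on the 3'UTR and 0 on the CDS. Its 3'UTR shares 350 words with the coding sequence of Ppid, which had 302 CDS footprints and 302 and 362 CDS counts in RNA-seq, so for this region the RNA-seq pattern was as lopsided as that of the footprints.

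No RNA-seq count at all, on either region in either replicate, was found for 10 of the 515 regions. They had 23 to 276 footprints on the 3'UTR and at most 4 on the CDS, and 7 held at least 1 of the 3 features, 5 of them a run of A. D630003M21Rik, named after its values were seen, led them with 276 footprints and a run of 27 A. Of the 55 regions with fewer than 10 CDS footprints, 33 had fewer than 10 RNA-seq counts on either region in both replicates.

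Among 370 regions with at least 100 CDS footprints and at least 20 RNA-seq counts on each region, the highest log2 footprint ratios belonged to H2-T23, Lrrc58, Pola2, Med16 and Cenpf. H2-T23, a nonclassical class I antigen-presenting molecule, had 176 footprints on a 3'UTR of 214 nt and 158 on the CDS, with 69.9 and 665 RNA-seq counts in replicate 1 and 83.0 and 1078 in replicate 2. Its log2 footprint ratio was 2.48 (2.16 to 2.80) against -0.93 and -1.38 for RNA, so footprints and RNA pointed to opposite regions. Of the 185 words of its 3'UTR, 150 occurred in transcripts of other genes.

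Pola2, a subunit of DNA polymerase alpha, had 180 and 213 footprints on the 3'UTR and CDS, 28.2 and 220 RNA-seq counts in replicate 1, and 33.0 and 317 in replicate 2 (log2 footprint ratio 1.12, 0.83 to 1.42). Med16, a subunit of Mediator, had 40.5 and 102 footprints, 32.1 and 286 RNA-seq counts in replicate 1, and 37.2 and 479 in replicate 2 (0.83, 0.27 to 1.37). Cenpf, a kinetochore protein, had 180 and 485 footprints, 56.1 and 509 RNA-seq counts in replicate 1, and 44.0 and 454 in replicate 2 (0.75, 0.49 to 1.00). All 3 held a repeated word, present in 441 other genes for Pola2 and Cenpf and in 463 for Med16, and lay above both RNA-seq ratios, with log2 differences of 2.87, 2.09 and 1.85.

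By the difference from RNA-seq, H2-T23 (3.63), Pola2 and Med16 were joined by Gnb2l1 and Emg1. Gnb2l1, a scaffold on the small ribosomal subunit, had 20.6 footprints on the 3'UTR and 6181 on the CDS, with 38.7 and 41241 RNA-seq counts in replicate 1 and 30.1 and 59240 in replicate 2. Its log2 footprint ratio of -5.99 (-6.69 to -5.37) exceeded very low RNA-seq ratios of -7.82 and -8.71, so its place among the highest differences came from how little RNA covered the counted 3'UTR. That counted 3'UTR, 194 nt, was 49.9% of the annotated one, which bears on all its ratios. Emg1, a methyltransferase of ribosome assembly, had 65.5 and 423 footprints, 61.3 and 1312 RNA-seq counts in replicate 1, and 63.8 and 1673 in replicate 2 (log2 difference 1.88). Gnb2l1 and Emg1 were the 2 of these 5 genes with no word shared with another gene.

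The lowest log2 footprint ratios included those of the abundant mRNAs Rps15a, Serbp1, Ywhaz and Ncl. Rps15a, a protein of the small ribosomal subunit, had 39.0 footprints on a counted 3'UTR of 4727 nt and 3584 on a CDS of 390 nt, with 109 and 4095 RNA-seq counts in replicate 1 and 147 and 5700 in replicate 2. Its log2 ratios were -10.12 (-10.62 to -9.67) for footprints and -8.83 and -8.87 for RNA, so most of its low footprint ratio was already present in the RNA. The same held for Ncl (nucleolin; footprints -8.65, RNA -5.92 and -5.91) and Serbp1, an mRNA-binding protein (-9.49, RNA -5.21 and -5.50), though Serbp1 fell further.

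Ywhaz, the zeta isoform of the signalling adaptor family 14-3-3, differed. It had 33.6 footprints on the 3'UTR and 4837 on the CDS, with 5379 and 784 RNA-seq counts in replicate 1 and 6396 and 948 in replicate 2, so the RNA was denser on the 3'UTR while the footprints were nearly absent from it. Its log2 footprint ratio was -8.95 (-9.48 to -8.46), and its log2 difference from RNA-seq, -9.93, was the lowest of the 370. Acp1, a low molecular weight phosphatase (log2 difference -8.26), and Rpl41, a protein of the large ribosomal subunit (-8.19), followed. In these 3 genes the RNA was denser on the 3'UTR. The footprint ratios of Acp1 and Rpl41, -6.15 and -6.61, lay near the median of all genes, -5.94, so their low differences came mainly from the RNA-seq ratios of 2.25 and 1.98 and of 1.55 and 1.63.

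Acp1 itself had 30.8 footprints on the 3'UTR and 504 on the CDS, with 1148 and 55.7 RNA-seq counts in replicate 1 and 1373 and 80.3 in replicate 2. Rpl41 had 237 and 6173 footprints, 11164 and 1022 RNA-seq counts in replicate 1, and 17239 and 1496 in replicate 2. For Rpl41, whose CDS has 75 nt, 54.3% of the annotated coding sequence was counted, which bears on both its ratios.

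Runs of A were also present in genes with many RNA-seq counts, such as Igf2bp2 and Igf2bp3. Igf2bp2, an mRNA-binding protein named after its values were seen like the other genes of this paragraph, had 445 footprints on the 3'UTR and 429 on the CDS, with 1628 and 1872 RNA-seq counts in replicate 1 and 1834 and 2449 in replicate 2. Its log2 footprint ratio of 0.04 (-0.15 to 0.24) was close to its RNA-seq ratios of -0.21 and -0.43, and its run of A had 37 bases with no other shared word. Its relative Igf2bp3 had 217 and 256 footprints (log2 ratio -0.53, RNA 0.04 and -0.11) and a run of 27 A. Nfia, a transcription factor, had 241 and 49.0 footprints (0.09, RNA -0.95 and -1.03) and a run of 38 A. Its RNA-seq counts were lower, at 238 and 99.9 in replicate 1 and 270 and 120 in replicate 2. The density of footprints on these 3'UTRs thus came near that on their own coding sequences. Other genes with a run of A and ample RNA did not share this. Ywhab, with a run of 20 A, had a log2 footprint ratio of -6.42 (RNA -0.71 and -0.82). Raph1, with a run of 23 A, had -3.67 (RNA 0.12 and -0.12), and Serbp1, with 21 A, had -9.49. For Serbp1 the run was found in a matched transcript with a 3'UTR of 352 nt, while the counted 3'UTR has 5324 nt. Over the 38 regions with a run of A that met the minimums, 15 were denser on the 3'UTR. Ecd, a cell cycle regulator with both a repeated word and a run of 26 A, had 204 and 197 footprints, 16.6 and 403 RNA-seq counts in replicate 1, and 25.5 and 488 in replicate 2, with a log2 difference of 4.48.

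Regions with none of the 3 features gave fewer high ratios. Among those with at least 100 CDS footprints, Arhgap11a, a GTPase-activating protein, had 135 footprints on the 3'UTR and 232 on the CDS, with 259 and 510 RNA-seq counts in replicate 1 and 227 and 582 in replicate 2, and Tor4a, a torsin ATPase, had 177 and 119 footprints, 537 and 355 RNA-seq counts in replicate 1, and 764 and 509 in replicate 2. Their log2 footprint ratios, 0.22 (-0.10 to 0.53) and 0.00 (-0.34 to 0.35), had intervals that include equal density; their RNA-seq ratios were 0.02 and -0.36, and 0.03 and 0.02. Hdac7, a histone deacetylase (-0.73), and Fnta, a farnesyltransferase subunit (-0.85), came below Emg1 (-0.65). The stop codons of the 5, printed above, were TAG in 4 and TGA in Emg1. Lcmt2, a tRNA-modifying enzyme, held no shared word and had 197 footprints on the 3'UTR and 91.2 on the CDS, but only 3 and 2.02 RNA-seq counts on the 3'UTR beside 216 and 284 on the CDS, so it fell short of the minimums.

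Stop codon use in the selected genes was close to that elsewhere. TGA ended 50.2% of the 510 coding sequences and 50.8% of the others, TAA 29.6% and 25.7%, and TAG 20.2% and 23.6%. TGA followed by C, a context known to favour readthrough, was present in 8.63% and 11.4%, and the readthrough motif TGACTA in 0 of 510 and 0.292% of the others (47). The next stop codon in frame lay a median of 20 and 18 codons downstream. Of the regions that met the minimums, 285 were denser on the CDS and held none of the 3 features. Their median log2 footprint ratio was -4.86 with TGA (n = 141), -5.27 with TAG (n = 56) and -5.36 with TAA (n = 88).

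Genes known for unusual decoding at stop codons were looked up as lists, beside 3.06% of all 16807 3'UTRs selected; a count of 0 in lists this short lies near that share. None of 19 selenoprotein genes, whose UGA codons are read as selenocysteine, and none of 15 genes with described readthrough reached 20 footprints; the 12 and 8 that met the minimums on the other regions had median log2 differences of -4.78 and -4.26, beside -5.18 over all 7887 genes. Of 15 genes for termination and ribosome rescue 2 were selected. Eif5a, which aids peptide bond formation and release, had 65.8 footprints on the 3'UTR and 3812 on the CDS, with 2285 and 1951 RNA-seq counts in replicate 1 and 3151 and 2518 in replicate 2. Etf1, the release factor, had 43.6 and 1495 footprints, 2133 and 2757 RNA-seq counts in replicate 1, and 2537 and 2978 in replicate 2. Their log2 differences of -6.13 and -4.80 show the usual sparse 3'UTR of a well translated mRNA.

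Of 75 cytosolic ribosomal protein genes and 66 replication-dependent histone genes in the files, 24 and 5 had a 3'UTR and CDS that could be used, and the counts below stand beside the 3.06% of all 3'UTRs. Of the 24 ribosomal protein genes 10 were selected, Rpl41 and Rps15a among them, and the 9 that met the minimums had a median log2 difference of -2.66, ranging from -8.19 to 1.00. Of 41 keratin genes 5 were selected (Krt10, Krt14, Krt19, Krt5 and Krt6a), the 4 that met the minimums at a median of -3.57. None of those that met the minimums was denser on the 3'UTR. Of the 5 histone genes Hist1h2bc and Hist1h2be were selected, and Hist1h2be had 204 footprints on the 3'UTR and 14061 on the CDS beside 2.00 and 15.0 RNA-seq counts in replicate 1 and 0 and 42.0 in replicate 2, so RNA-seq nearly missed an mRNA that carried many footprints. Krt10, with 32.0 footprints on the 3'UTR and 7 on the CDS, fell under the CDS minimum.

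The most translated housekeeping genes, chosen after their values were seen, show the pattern of the most abundant mRNAs. Actb had 287 footprints on the 3'UTR and 42354 on the CDS, Eef1a1 332 and 38203, and Gapdh 412 and 22695. Their log2 footprint ratios were -6.49, -4.56 and -3.25, against RNA-seq ratios of -1.17 and -1.40, -0.78 and -1.02, and -1.22 and -1.18. In each, footprints were far sparser on the 3'UTR than on the coding sequence. The Eef1a1 3'UTR overlaps Gm26377, an annotated microRNA gene, by 108 nt and shares 71 of its 258 words of 28 bases with other genes; Gapdh shares 131 of 152 and Actb 196 of 656.

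On a scale of translational efficiency, the log2 of footprints over RNA-seq after division by each library's exon counts, the 3'UTRs of the 448 regions had a median of -2.47 (-2.51 and -2.43 with either RNA-seq replicate) and their coding sequences 0.85. The first value was -2.02 with DESeq2 size factors, -6.07 with the deposited RPKM and 0.25 with a minimum of 100 footprints, so neither its size nor its sign is fixed. In the 7439 other genes that met the minimums the medians were -5.16 and 0.05. The selected genes thus also had more footprints per RNA on the coding sequence, a region the choice did not use directly. These footprints come from the same single library whose 3'UTR footprints chose the genes, so the contrast is a description. Other library sizes were not applied to the coding-sequence values.

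The threshold fell within a dense part of the distribution. Just inside it, Ctcfl and Prkg1 each had 20 footprints on the 3'UTR, 0 on the CDS and at most 2.00 RNA-seq counts on the 3'UTR, and Tstd2 had 20 and 81.0 footprints. Stxbp6, Zc3h11a and Ccdc6, with 51.7, 170 and 115 on the CDS, also came to 20 footprints but were left out, because their deposited sums fall below 20 by an amount of the size of floating-point error. With the sums rounded to 6 decimals first, 518 regions would have been selected. A count of 20 has a 95% interval of 12.2 to 30.9, so the regions on either side cannot be told apart by their footprints.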

How the data were processed

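The authors deposited, for each gene, estimated counts and RPKM on the CDS, 3'UTR, 5'UTR and exons; fractional values come from the authors' counting. Per the labels, reads were processed with Bowtie2 2.4.1 and STAR 2.6.1 on GRCm38. Footprint reads that aligned to rRNA, tRNA or mitochondrial sequences had been removed with Bowtie2, per the methods of the study. The authors counted reads with Plastid. The gene annotation used for that step and the rule for reads that match several places are not given in the sources used here. The 3 long-read samples of the series have no processed values and were left out.

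From the deposited counts, densities, log2 ratios of 3'UTR to CDS and their differences between ribosome profiling and RNA-seq were computed in Python 3.11.15 (pandas 2.3.3, numpy 2.4.6, scipy 1.17.1). Exon counts summed to 3549555 in ribosome profiling and 10707930 and 14003713 in RNA-seq. Intervals are Clopper-Pearson for ratios, Poisson for counts and Wilson for shares, at 95%. RNA-seq replicates varied beyond counting error on the 3'UTRs (chi-square per degree of freedom 10.1 over 473 regions). No test was made, since the footprints chose the regions and there is 1 ribosome profiling library and 1 condition. The calculation was tested on simulated data.

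Sequence features came from GENCODE M21 (GRCm38), and coordinates are 1-based. A word of 28 bases was simple if it held at most 8 different pieces of 3 bases. Words of the gene itself and of genes overlapping it on the same strand were not counted as shared.

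Genes were named by rule: the 5 with most 3'UTR footprints; among those with at least 100 CDS footprints and 20 RNA-seq counts on each region, the 5 highest and 5 lowest footprint ratios and the 5 highest and 3 lowest differences from RNA-seq; the 3 with fewest CDS footprints; the 3 on either side of the threshold; and every selected gene of the selenoprotein, readthrough and termination lists. The regions and gene lists were chosen with earlier results of these data known.

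Alternatives changed the footprint, count and length minimums, joined names, coverage of the annotated regions, overlapping genes, ribosomal protein and histone genes, each RNA-seq replicate, and library size (DESeq2 1.42.0, edgeR 4.0.16, the deposited RPKM). Leaving out regions with the 3 sequence features, or the 5 regions with most footprints, was added after seeing the data.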

Additional observations from a re-analysis of the deposited data

Results flagged for a closer look

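The 204 entries with joined gene names stayed outside the comparisons above. Among them 7 had at least 20 footprints on the 3'UTR, from 20.1 to 204, above the limit of 3.69 that a count of 0 allows. Of these, 6 met the minimums on the other regions, with a median log2 footprint ratio of -3.93 and a median log2 difference from RNA-seq of -3.10, and none of the 6 was denser on the 3'UTR.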

How the results depend on the processing

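No paired analysis was possible because there is 1 ribosome profiling library and 1 condition. Of 81 values recomputed for the 8 results on the selected regions, 33 stayed within their error or within 1.5 times the count, 47 moved and 1 changed sign. Except for the last, the medians kept their sign under all alternatives run.

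The footprint minimum sets the selection. With 10 footprints 1193 regions were selected. With 50, 158 were, with medians of -3.53 for the log2 footprint ratio, -1.02 for the log2 RNA-seq ratio, -1.82 for the log2 difference and -0.96 for 3'UTR translational efficiency, and 36 regions above both RNA-seq ratios. With 100 these were 57 regions, -0.77, -1.06, -0.11 and an efficiency of 0.25, the changed sign, with 18 regions denser on the 3'UTR and 21 above both RNA-seq ratios. A higher minimum keeps regions with more footprints by its construction.

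The minimums on the other regions acted on the same values. Without a minimum and with a pseudocount of 0.5, the footprint ratio was -4.20, the difference -2.70 and the efficiency -1.87, with 92 regions denser on the 3'UTR and 117 above both RNA-seq ratios. With a minimum of 50 counts these were -5.03, -3.99, -2.96, 9 and 21. A minimum 3'UTR length of 300 nt gave an RNA-seq ratio of -0.59, a difference of -3.87, an efficiency of -2.78 and a 3'UTR share of footprints of 2.63%.

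Requiring that 80% or more of the annotated 3'UTR and CDS was counted gave a difference of -3.60, an efficiency of -2.63, 23 regions denser on the 3'UTR and 36 above both RNA-seq ratios. Leaving out 3'UTRs that overlap another gene on either strand gave a difference of -3.61 and a footprint share of 2.11%, and leaving out ribosomal protein and histone genes a share of 2.34%. For these and the length limit the cause was not tested. Leaving out either RNA-seq replicate gave RNA-seq ratios of -0.82 to -0.72.

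The efficiency was -2.02 with DESeq2 size factors, -2.09 with edgeR TMM factors and -6.07 with the deposited RPKM, which implies other library sizes; the log2 difference needs no library size and was the same from RPKM. Added after seeing the data, leaving out the 3'UTRs with at least 1 of the 3 sequence features or no matched transcript left 307 regions, with a footprint ratio of -5.15, an RNA-seq ratio of -0.61, a difference of -4.33, an efficiency of -3.27, a share of 1.55%, 5 regions denser on the 3'UTR and 13 above both RNA-seq ratios. Leaving out the 5 3'UTRs with the most footprints gave a share of 2.10%.

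For the 19 named genes with a log2 difference, most alternatives leave the value as it is by construction, and 2 recomputed values moved. Depth limits the rest: 8754 3'UTRs had no footprint.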

Other observations

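The deposited RPKM values imply a library size 57.2 times the exon counts for ribosome profiling, and sizes 4.74 and 4.68 times the exon counts for the RNA-seq replicates. RPKM values of different libraries are therefore not on a common scale of exon counts.

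The features of the 3'UTR were found in annotation of GRCm38 transcripts and not in the reads. Counts per region do not show where in a 3'UTR a footprint lay, its length or its reading frame. The annotation behind the counts is not stated, and for some genes the counted 3'UTR was longer or shorter than the annotated one. This series deposits a single ribosome profiling library in 1 genotype, and libraries deposited elsewhere were not used, so no value here says how the footprints would vary between cultures or from normal keratinocytes. Most regions stood close to the threshold, where counting error is large, and regions below the minimums had no ratio because a count on another region was too low.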
